A study of Mus musculus with 9 samples.

Results

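The genes described here are 10 immediate early genes of mouse aorta, of 33293 gene identifiers in the deposited table. They are Nr4a1, Nr4a2 and Nr4a3, the NR4A orphan nuclear receptors; Egr1, Egr2 and Egr3, zinc finger transcription factors; Ier2, Ier3 and Ier5, named for their immediate early response; and Dusp1, a MAP kinase phosphatase. They were taken by symbol, and every one was found as a single row. RNA of whole aorta was sequenced in 9 libraries from male mice aged 7 to 8 weeks on a normal chow diet. Of these, 5 came from C57BL/6J wild type mice (WT) and 4 from Apoe-knockout mice (Apoe_KO), which lack apolipoprotein E, a ligand for clearance of plasma lipoproteins. The design asks which transcripts differ between aortas of these genotypes. The labels give neither the knockout allele nor its strain background, and nothing in them ties a library to its own animal, so all p-values measure only the spread between these libraries, which may be technical.

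Immediate early genes are transcribed within minutes of a stimulus without new protein synthesis, because the factors that switch them on, among them SRF with its ternary complex partners and CREB, are already present in the resting cell and are activated by kinases. NR4A receptors act without a known physiological ligand, so that their activity follows their abundance, and EGR proteins pass a transient signal on to later genes of growth, coagulation and repair. In the vessel wall both families respond to injury, growth factors, lipids and flow. Dusp1 and Ier3 act in feedback on kinase signalling, and transcripts of this class also respond to the handling of a tissue during dissection.

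Values are FPKM, reads or fragments scaled to exon length and library depth, which can be compared between genes. The depth behind them, fitted to the values themselves, was 17.0 to 19.8 M reads or fragments per library. At that depth the members were covered by 87 to 9591 reads. Apoe itself was at 513 to 643 FPKM in WT and 5.64 to 6.55 FPKM in Apoe_KO, so every library followed its label. Of 13383 genes tested by limma on log2(FPKM + 1), 459 were higher and 524 lower in Apoe_KO at an adjusted p under 0.05, which is what "passed", "rose" and "fell" mean below. With median centring the split was 630 higher and 269 lower, and with quantile normalization 485 and 240. Smooth muscle markers summed to 4740 to 6129 FPKM across the 9 libraries. Lymphocyte transcripts set WT 2 and Apoe_KO 4 apart from the rest, with summed B and plasma cell markers of 460.1 and 395 FPKM, against 15.2 to 39.5 FPKM in the other 7 libraries.

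Stretches of promoter are shown for the 3 NR4A genes, which differed in their response, for Dusp1, whose level moved with Nr4a1, and for Ier3. The RefSeq promoter sequences used here (GRCm38.p6) were matched for 7 of the 10 members; those of Egr1, Egr3 and Ier2 were not analysed here. Within the 250 bases before each start, 6 motifs were searched on both strands: the CRE, TGACGTCA, which CREB binds; its core TGACG, which overlaps the CRE; the CArG box of SRF; the AP-1 site TGANTCA; the EGR site GCGNGGGCG; and the NBRE AAAGGTCA of NR4A monomers. Capitals mark the core TGACG or its complement CGTCA, and the full CRE in Dusp1. Bases that GENCODE annotates as exon are left out, so 98 of the 250 bases are shown for Nr4a3, 203 for Dusp1 and 221 for Ier3.
Nr4a3, chr4:48045055-48045152, plus strand: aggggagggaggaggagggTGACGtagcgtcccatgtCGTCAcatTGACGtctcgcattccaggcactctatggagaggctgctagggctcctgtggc
Nr4a1, chr15:101266596-101266845, plus strand: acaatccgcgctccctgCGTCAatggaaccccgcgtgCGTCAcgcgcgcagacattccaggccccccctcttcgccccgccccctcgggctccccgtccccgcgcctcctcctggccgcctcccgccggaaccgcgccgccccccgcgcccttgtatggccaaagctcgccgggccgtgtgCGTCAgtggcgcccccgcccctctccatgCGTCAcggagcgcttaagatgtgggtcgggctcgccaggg
Nr4a2, chr2:57124004-57124253, minus strand: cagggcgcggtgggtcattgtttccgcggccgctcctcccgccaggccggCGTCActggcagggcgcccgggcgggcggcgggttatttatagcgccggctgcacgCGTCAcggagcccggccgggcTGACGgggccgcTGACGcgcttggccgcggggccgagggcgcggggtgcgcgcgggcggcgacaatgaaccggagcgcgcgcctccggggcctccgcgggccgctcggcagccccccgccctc
Dusp1, chr17:26508520-26508722, minus strand: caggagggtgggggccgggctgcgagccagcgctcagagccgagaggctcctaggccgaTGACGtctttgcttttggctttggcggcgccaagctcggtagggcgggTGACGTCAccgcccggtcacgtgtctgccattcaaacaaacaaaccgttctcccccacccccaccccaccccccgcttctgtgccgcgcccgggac
Ier3, chr17:35821463-35821683, plus strand: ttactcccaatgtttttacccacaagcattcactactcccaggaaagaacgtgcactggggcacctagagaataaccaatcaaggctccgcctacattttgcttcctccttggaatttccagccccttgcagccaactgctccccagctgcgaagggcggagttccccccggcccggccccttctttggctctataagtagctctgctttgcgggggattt
All 3 NR4A windows held 4 TGACG cores, at -231, -213, -205 and -147 in Nr4a3 (the last in the part not shown), at -233, -213, -69 and -40 in Nr4a1 and at -200, -144, -123 and -111 in Nr4a2, counted from the first base of each match to the start. Of 32851 windows over all genes 0.137% held at least 4 cores and 17.8% at least 1. The Dusp1 window held the full CRE at -143, which 1.55% of all windows did. A CArG box was found in 4 of the 5 windows listed for Egr2, of which 3 overlap each other and share 1 box, and in 1.47% of all windows. Nr4a1 and Nr4a2 each held an EGR site (4.70% of all windows), and no AP-1 site (6.75%) or NBRE (1.34%) was found in any member's window. The windows of Ier3 and Ier5 held none of these letters. A match is a string of letters and not evidence of binding.

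Nr4a3 rose in Apoe_KO, and its level there was 3.74 times that of WT. Nr4a3 (ENSMUSG00000028341, chromosome 4, 48045153 to 48086447, plus strand, GRCm38) was at 2.81, 2.55, 5.72, 3.31 and 4.96 FPKM in WT 1 to WT 5 and at 14.0, 14.6, 13.3 and 16.1 FPKM in Apoe_KO 1 to Apoe_KO 4. The groups did not overlap, every Apoe_KO library being above the highest WT library, and the Apoe_KO libraries lay close together. The means were 3.87 ± 1.39 FPKM (SD, n = 5) and 14.5 ± 1.17 FPKM (SD, n = 4). On the log2(FPKM + 1) scale, which understates changes of low levels, the difference was 1.71 (SE 0.18, adjusted p = 0.00138), place 33 of 13383 by p.

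Nr4a1, also called Nur77, and Nr4a2, also called Nurr1, did not pass. Nr4a1 (chromosome 15, 101254269 to 101274795, plus strand) was at 25.1, 38.5, 80.1, 54.5 and 80.2 FPKM in WT and at 56.3, 75.3, 83.6 and 78.7 FPKM in Apoe_KO. Its WT libraries spread over 3.19-fold and reached the level of the knockouts in WT 3 and WT 5. WT 1, WT 2 and WT 4 lay below every Apoe_KO library. Nr4a2 (chromosome 2, 57106830 to 57124003, minus strand) was at 2.77, 3.90, 8.77, 3.27 and 4.45 FPKM in WT and at 5.17, 6.00, 4.70 and 6.201 FPKM in Apoe_KO. All Apoe_KO libraries were above 4 of the WT libraries and below WT 3. The log2 difference was 0.51 for Nr4a1 (95% interval -0.22 to 1.23, adjusted p = 0.373) and 0.29 for Nr4a2 (-0.25 to 0.84, adjusted p = 0.502), intervals that include both no change and a rise.

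The balance within the NR4A family differed between genotypes. Nr4a3 made up 9.17%, 5.68%, 6.04%, 5.42% and 5.54% of the summed NR4A level in WT 1 to WT 5 and 18.6%, 15.2%, 13.1% and 15.9% in the Apoe_KO libraries, whereas Nr4a1 remained the most abundant of the family in every library, at 74.5% to 89.5%. The ratio of Nr4a3 to Nr4a1 within a library ran from 0.0607 to 0.112 in WT and from 0.159 to 0.250 in Apoe_KO. The ratio of Nr4a3 to Nr4a2 ran from 0.652 to 1.12 in WT, where Nr4a3 was above Nr4a2 in 3 of 5 libraries, and from 2.43 to 2.83 in Apoe_KO, where it was above in 4 of 4. Neither pair of ranges overlapped, and the log2 ratios differed between genotypes by 1.46 and 1.60. The two-sided exact permutation p was 0.0159 for each, the smallest that splits of 5 and 4 libraries can give. Over the 4 ratios between members that were tested the adjusted p was 0.0317. Those 4 ratios set Nr4a3 and Ier3, the members that rose, over the others of their families. Their p is therefore not independent of the rise of Nr4a3 itself. Because the ranges were apart, leaving out libraries could only give the smallest p of the remaining splits, so it is no further test. For each ratio the exact permutation p was 0.0286 without any 1 WT library and 0.0357 without any 1 Apoe_KO library. Without WT 2 and Apoe_KO 4 together it was 0.0571. A ratio within a library does not depend on how libraries are scaled.

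**Figure D1:**
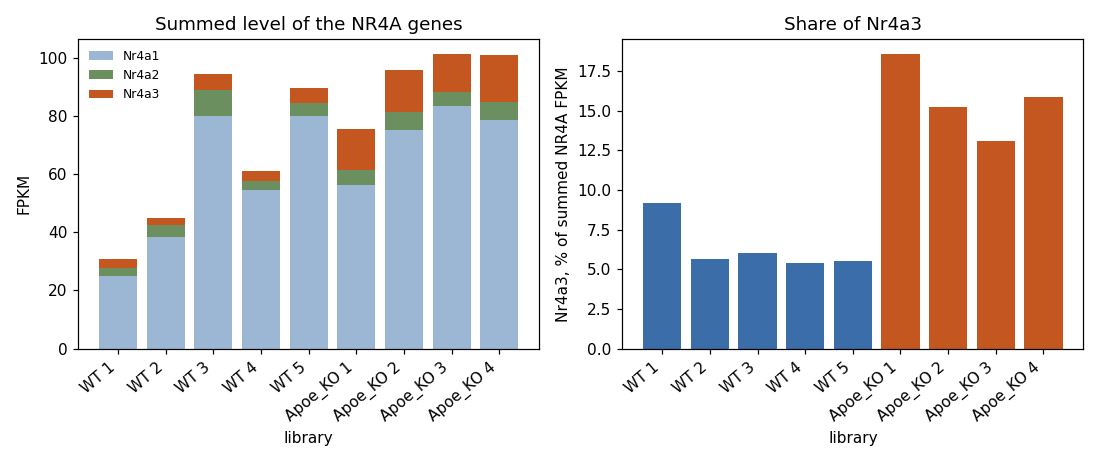
Left, FPKM of Nr4a1, Nr4a2 and Nr4a3 stacked for each of the 9 libraries; right, Nr4a3 as a percentage of that sum, WT in blue and Apoe_KO in orange. The Nr4a3 share is at most 9.17% in WT and at least 13.1% in Apoe_KO.

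In these bulk samples a change in the number of cells of a type cannot be told apart from a change of RNA per cell. Of the 12 heat shock genes, whose products protect proteins from damage, 10 rose beside Nr4a3 and 0 fell, with a median log2 difference of 0.93. Over all tested genes 3.43% rose and 3.92% fell, with a median of -0.069. The heat shock list was chosen with earlier results of these data known. Hspb1, a small heat shock protein gene, was at 76.3 to 122 FPKM in WT and 368 to 620 FPKM in Apoe_KO, in 5 and 4 libraries. Of the 11 lists of cell type markers, 8 had no member that passed. In the other lists 2 of 6 white adipocyte markers, 1 of 6 endothelial markers and 1 of 6 Schwann cell markers fell, beside 3.92% of all tested genes. Some lists without a passing member were tested only in part. These included T and NK cells (2 of 6 markers tested), neutrophils and mast cells (3 of 6) and B and plasma cells (4 of 6). The summed macrophage markers were at 161 to 216 FPKM in WT and 208 to 296 FPKM in Apoe_KO. The part of any of these in the rise of Nr4a3 was not tested.

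No EGR gene passed, though Egr2 had the largest difference of the family. Egr2 (chromosome 10, 67535475 to 67542188, plus strand), known for its role in myelinating Schwann cells and in T cells, was at 1.30, 1.78, 1.47, 1.80 and 3.004 FPKM in WT and at 2.23, 4.598, 2.78 and 3.66 FPKM in Apoe_KO. WT 5 alone of the WT libraries reached into the range of the knockouts. The means were 1.87 ± 0.669 FPKM (SD, n = 5) and 3.32 ± 1.04 FPKM (SD, n = 4), with a log2 difference of 0.59 (95% interval 0.15 to 1.02, adjusted p = 0.0977). Without WT 5 it passed narrowly, at 0.71 (adjusted p = 0.0497). Markers of Schwann cells summed to 124 to 165 FPKM in WT and 70.7 to 143 FPKM in Apoe_KO, and their part was not tested.

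Egr1 (chromosome 18, 34859823 to 34864984, plus strand), the best studied EGR factor of the injured vessel wall, was at 26.7, 40.4, 55.8, 53.8 and 115 FPKM in WT and at 42.6, 75.1, 57.3 and 71.3 FPKM in Apoe_KO. The WT libraries spanned 4.31-fold, the widest range of the 10 genes in WT, and enclosed every Apoe_KO library. Egr3 (chromosome 14, 70077203 to 70082614, plus strand) was at 1.01, 2.54, 1.83, 1.21 and 2.28 FPKM in WT and at 1.76, 1.83, 1.77 and 2.47 FPKM in Apoe_KO, again within the WT range. The log2 differences were 0.21 for Egr1 (95% interval -0.60 to 1.02, adjusted p = 0.761) and 0.12 for Egr3 (-0.27 to 0.51, adjusted p = 0.713). Egr1 made up 90.3% to 95.6% of the summed EGR level in all 9 libraries. The highest Egr3 values of each genotype were those of WT 2 and Apoe_KO 4, the libraries with lymphocyte transcripts, and the part of those cells was not tested.

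Ier3 was the other member that rose. Ier3 (ENSMUSG00000003541, chromosome 17, 35821684 to 35822923, plus strand), which encodes a regulator of cell survival and of ERK and NF-kappaB signalling, was at 17.0, 17.5, 19.3, 17.1 and 19.7 FPKM in WT and at 31.6, 28.4, 43.9 and 33.3 FPKM in Apoe_KO. The WT libraries lay within 1.16-fold of each other, the narrowest range of the 10 genes in WT, and none reached the knockouts, of which Apoe_KO 3 was the highest. The means were 18.1 ± 1.28 FPKM (SD, n = 5) and 34.3 ± 6.73 FPKM (SD, n = 4), a ratio of 1.89. The log2 difference was 0.87 (SE 0.11, adjusted p = 0.00282), place 87 of 13383 by p. The heat shock and macrophage values given beside Nr4a3 come from these same libraries. Within Apoe_KO, Hspb1 (620 FPKM) and the summed macrophage markers (296 FPKM) were highest in Apoe_KO 4. Their part in the rise of Ier3 was not tested.

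Ier2 and Ier5, which encode nuclear proteins, did not pass. Ier2 (chromosome 8, 84661331 to 84662852, minus strand) was at 15.0, 21.6, 30.2, 23.4 and 43.9 FPKM in WT and at 16.4, 38.0, 27.3 and 32.7 FPKM in Apoe_KO, with both genotypes covering nearly the same range (log2 difference 0.12, 95% interval -0.58 to 0.82, adjusted p = 0.850). Ier5 (chromosome 1, 155096361 to 155099636, minus strand), a cofactor of the heat shock factor HSF1, was at 4.86, 7.92, 4.02, 4.50 and 5.35 FPKM in WT and at 6.11, 9.21, 6.87 and 12.1 FPKM in Apoe_KO. Its 4 Apoe_KO libraries were above every WT library but WT 2. The Ier5 log2 difference was 0.59 (95% interval 0.12 to 1.05, adjusted p = 0.118), and with WT 2 and Apoe_KO 4 both left out it was 0.55 (adjusted p = 0.0723). Those libraries held the highest Ier5 level of their genotype along with T and NK cell markers of 25.3 and 17.7 FPKM, against 1.75 to 6.12 FPKM elsewhere. The part of those cells in the Ier5 level was not tested.

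The difference between IER genes was smaller than in the NR4A family. Ier3 was at 0.449 to 1.14 times the level of Ier2 in WT and at 0.747 to 1.92 times in Apoe_KO, with overlapping ranges (log2 difference 0.78, two-sided exact permutation p = 0.0952, adjusted p = 0.127 over the 4 ratios). The ratio of Ier3 to Ier5 was 2.21 to 4.81 in WT and 2.75 to 6.39 in Apoe_KO (log2 difference 0.23, exact permutation p = 0.492). A change of Ier3 beyond that of Ier2 or Ier5 was therefore not shown.

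Dusp1 (chromosome 17, 26505590 to 26562128, minus strand), which dephosphorylates p38, JNK and ERK, was the most abundant member in both genotypes. It was at 47.8, 75.3, 125.9, 110.4 and 139 FPKM in WT and at 88.7, 98.9, 129 and 121 FPKM in Apoe_KO, all of the latter within the WT range (log2 difference 0.22, 95% interval -0.44 to 0.87, adjusted p = 0.690). In GENCODE its locus overlaps Ergic1 and Gm8225 on the opposite strand and 2 more on its own. Whether counting used strand is not stated in the sources, so part of its reads could belong to them. No other member overlaps an annotated gene.

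**Figure D2:**
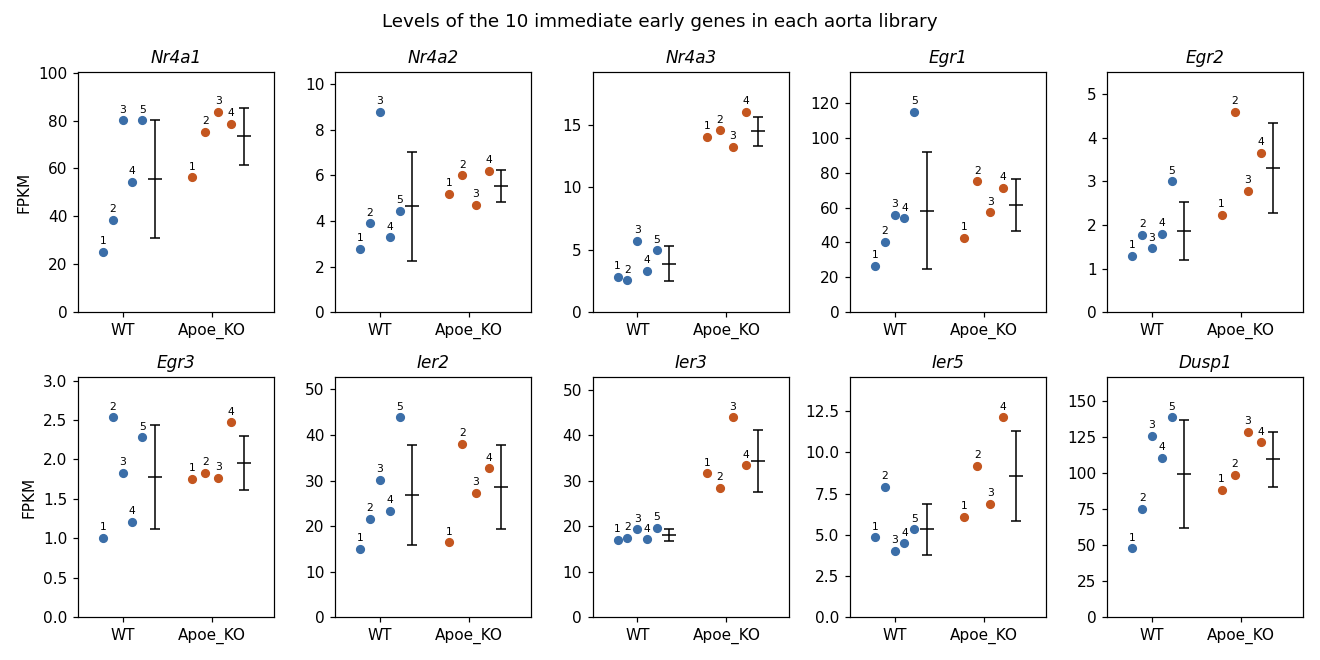
FPKM of each of the 10 genes in the 5 WT (blue) and 4 Apoe_KO (orange) libraries, numbered by replicate, with the mean and SD of each genotype in black; each panel has its own linear axis from 0. The groups are apart for Nr4a3 and Ier3, and for the other genes they overlap.

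Over the whole set, 10 of 10 members were at 1 FPKM or more in every library and were tested. Of these 2 passed as higher and 0 as lower, where 3.43% of all tested genes passed as higher and 7.35% in either direction. The groups did not overlap, with Apoe_KO above WT, for those 2 members and for 4.9% of all tested genes (12.4% in either direction). The fitted difference was above 0 for 10 of 10 members, with a median of 0.40 against -0.069 over all tested genes, but it turned below 0 for Egr1 (-0.024), Ier2 (-0.063) and Dusp1 (-0.020) without WT 1, for Egr1 (-0.070) and Ier2 (-0.088) with library weights, and for Ier2 without Apoe_KO 2 (-0.038) or without WT 2 and Apoe_KO 4 together (-0.020). By mean level the order in WT was Dusp1, Egr1, Nr4a1, Ier2, Ier3, Ier5, Nr4a2, Nr4a3, Egr2 and Egr3. In Apoe_KO it was Dusp1, Nr4a1, Egr1, Ier3, Ier2, Nr4a3, Ier5, Nr4a2, Egr2 and Egr3. Ranges of neighbouring genes in these orders overlapped in WT except between Ier3 and Ier5, and in Apoe_KO except between Dusp1 and Nr4a1, between Ier2 and Nr4a3, between Nr4a3 and Ier5 and between Nr4a2 and Egr2.

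**Figure D3:**
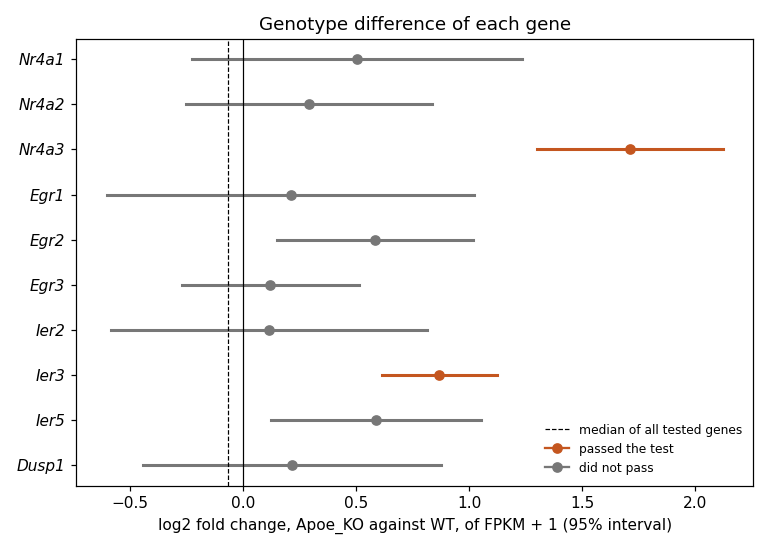
Difference between genotypes of each gene on the log2(FPKM + 1) scale, as the estimate and 95% interval from limma over 5 WT and 4 Apoe_KO libraries; orange marks genes that passed, and the dashed line is the median of all 13383 tested genes, -0.069. Nr4a3 lies at 1.71 and Ier3 at 0.87, and the intervals of Nr4a1, Nr4a2, Egr1, Egr3, Ier2 and Dusp1 include 0.

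The members varied more between libraries of one genotype than most genes. The SD within genotypes on the log2 scale was 0.39 in the median member and 0.16 in the median tested gene, and 10 of 10 members were above that value. Egr1 (0.62), Nr4a1 (0.56) and Ier2 (0.53) were beyond the 95th percentile of all tested genes, which was 0.52, while Ier3 (0.19) was the least variable member. WT 1 was the lowest WT library for 8 of the 10 genes, all but Nr4a3 and Ier5, and WT 5 the highest for 6. Apoe_KO 1 was the lowest knockout library for 7 of 10.

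Nr4a1, Egr1, Ier2 and Dusp1 varied together from library to library. Among the 8 members whose genotypes overlapped, 28 pairs were correlated over the 9 libraries on the log2(FPKM + 1) scale, and the 6 pairs formed by these 4 genes were the ones with an adjusted exact permutation p under 0.05 for Pearson's r. For Egr1 with Ier2, Pearson's r was 0.94 (exact permutation p = 5.51e-05, adjusted 0.00154) and Spearman's rho 0.97 (exact permutation p = 0.000165, adjusted 0.00463). For Nr4a1 with Dusp1 they were 0.95 (exact permutation p = 0.000752, adjusted 0.0105) and 0.93. The deviations from the genotype means gave r of 0.94 and 0.97 for these pairs, so the relation was also present with the genotype difference removed.

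Without the 2 libraries farthest from the median of the gene named first, r was 0.91 for Egr1 with Ier2 (exact permutation p = 0.004) and 0.70 for Nr4a1 with Dusp1 (exact permutation p = 0.0659). The remaining pairs, Nr4a1 with Egr1 (0.84), Nr4a1 with Ier2 (0.80), Egr1 with Dusp1 (0.84) and Ier2 with Dusp1 (0.78), fell to r of 0.57, 0.75, 0.62 and 0.57, with exact permutation p of 0.181, 0.0601, 0.146 and 0.184, and none of these 4 had an adjusted p under 0.05 for Spearman's rho. WT 1 was among the libraries left out in each case. With 7 libraries only Egr1 with Ier2 kept a p under 0.05, while r stayed at 0.70 or more for Nr4a1 with Dusp1 and with Ier2 and was 0.62 or less for the other 3 pairs. Ier5 followed a different course, with r of 0.09 with Dusp1 and 0.23 with Nr4a1.

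**Figure D4:**
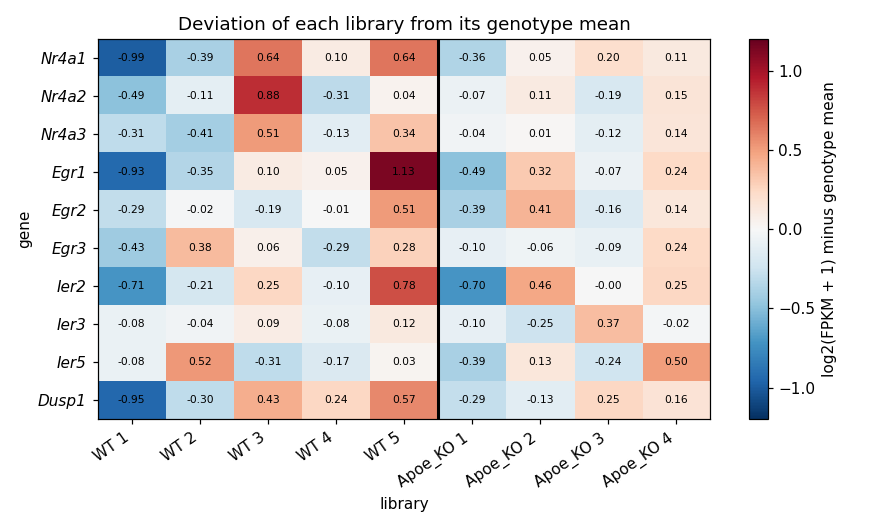
Deviation of log2(FPKM + 1) from the genotype mean for each gene (rows) in each library (columns, WT left of the black line); red is above and blue below the mean. WT 1 is blue for Nr4a1, Egr1, Ier2 and Dusp1 and WT 5 red, whereas the row of Ier3 is pale in WT.

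Genes whose pattern was most like that of each member that rose were found by Pearson's r over the 9 libraries, as a description, since a shared genotype difference alone gives a high r. For Nr4a3 they were Klf15 (r = 0.99), a Kruppel-like factor at 17.0 to 22.4 FPKM in WT and 36.8 to 39.6 FPKM in Apoe_KO, the syndecan gene Sdc4 (0.99) and the kinase gene Map3k6 (0.98). For Ier3 they were Spsb1 (0.99), which encodes a SOCS box protein, Klf9 (0.99), another Kruppel-like factor at 64.9 to 78.3 FPKM in WT and 100.2 to 123 FPKM in Apoe_KO, and the metalloprotease gene Adamts15 (0.98). All 6 rose, with log2 differences of 0.62 to 1.11. For the mean deviation of the 10 members from their genotype means, the nearest genes were Smim11 (0.97), the AP-1 subunit gene Junb (0.97), the antiproliferative gene Btg2 (0.97), Fos (0.96), also of AP-1, and Zfp36 (0.96), whose protein destabilizes mRNAs. None of these 5 passed.

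Among 33 tested genes of 34 listed as other immediate early factors, 10 rose and 0 fell, where 3.43% and 3.92% of all tested genes did, and the median log2 difference was 0.16. The list was drawn up with earlier results of these data known. Maff and Mafk, small Maf factors, rose by 1.51 and 0.73 on the log2 scale, and Csrnp1, a nuclear factor gene, by 1.57. Rhob, a GTPase gene, rose by 0.56, a call lost without WT 2 and Apoe_KO 4 together (adjusted p = 0.0532) and with the replicate number as a block (adjusted p = 0.0505). Also higher were Ccn2, which encodes connective tissue growth factor, at 1.10 (adjusted p = 0.0125), Sik1, a CREB-responsive kinase gene, at 1.32 (0.0373) and Gadd45g at 1.12 (0.0198). So were Myc at 1.00 (0.0476), Fosl2 at 0.60 (0.0376) and Arc at 0.53 (0.0215). Arc was at a mean of 0.923 FPKM in WT and 1.78 FPKM in Apoe_KO. These genes, from Ccn2 on, were added after their values were seen, and their calls under the alternatives are not given. Egr4, the fourth EGR gene, did not pass the filter on low values.

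Fos, an AP-1 gene, was lower on average in Apoe_KO without passing. It was at 24.1, 57.2, 70.9, 66.0 and 141 FPKM in WT and at 10.6, 26.7, 21.3 and 26.2 FPKM in Apoe_KO, where only WT 1 reached into the range of the knockouts. The log2 difference was -1.59 (SE 0.45, adjusted p = 0.0659), which did not pass; without WT 1 (adjusted p = 0.0232), with the replicate number as a block (0.0176) and with library weights (0.0276) it did.

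Most regulators of these genes did not pass, and neither did most tested genes, of which 3.43% rose and 3.92% fell. Of 17 factors and coactivators that act upstream, 2 rose, Mef2d at 0.39 and the SRF coactivator gene Mrtfa at 0.46, and 1 fell, the ternary complex factor gene Elk3 at -0.41; the median was 0.04. Of 24 genes of the MAP kinase cascades 1 rose, Map2k3 at 0.33, and 1 fell, Map2k6 at -0.68, both kinases upstream of p38, with a median of -0.11. Of 17 MAP kinase phosphatases and feedback inhibitors 1 rose, Errfi1, an inhibitor of the EGF receptor, which went from 55.5 ± 23.1 FPKM (SD, n = 5) to 197 ± 34.1 FPKM (SD, n = 4), and 1 fell, the phosphatase gene Dusp10 at -0.43; the median was -0.02. Several of these calls were close to the threshold. Dusp10 was lost when any library but WT 5 was left out (adjusted p = 0.0526 to 0.127), Elk3 when any but WT 1 or Apoe_KO 4 was (0.0654 to 0.108), Mrtfa when any but WT 2 or Apoe_KO 2 was (0.0533 to 0.0714), and Map2k3 without WT 1, WT 4, WT 5, Apoe_KO 1, Apoe_KO 3 or Apoe_KO 4 (0.0522 to 0.0795). With the replicate number as a block Dusp10 (adjusted p = 0.0871), Elk3 (0.128), Mrtfa (0.143), Map2k3 (0.16), Mef2d (0.111) and Map2k6 (0.112) were lost, and with no filter on low values Dusp10 (0.119), Elk3 (0.117), Mrtfa (0.0799) and Map2k3 (0.0708) were. Without WT 2 and Apoe_KO 4 together Dusp10 (0.0939), Elk3 (0.0885), Map2k3 (0.0629) and Mef2d (0.0518) were lost. Dusp10 and Elk3 were also lost with median centring (0.1 and 0.0873), quantile normalization (0.141 and 0.0772) and voom (0.0903 and 0.0706).

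Partners of these proteins and genes known as EGR1 targets were lower or did not pass, where 3.43% of all tested genes rose and 3.92% fell. Of 6 partners and corepressors 2 fell and 0 rose, with a median of -0.10. Nab2, which is induced by EGR factors and represses their activity, was at 6.11, 5.74, 6.53, 5.81 and 4.95 FPKM in WT and at 4.28, 3.79, 2.40 and 2.61 FPKM in Apoe_KO, with no overlap (log2 difference -0.70, SE 0.14, adjusted p = 0.0174). Its call was lost without Apoe_KO 3 (adjusted p = 0.0506), without WT 2 and Apoe_KO 4 together (0.0739) and with the replicate number as a block (0.0861). Rxrg, a retinoid X receptor gene, fell by 0.59, a call lost when any library but WT 2 or Apoe_KO 2 was left out (adjusted p = 0.0687 to 0.126), without WT 2 and Apoe_KO 4 together (0.0894), with the replicate number as a block (0.184), with no filter (0.112), and with median centring (0.0925), quantile normalization (0.117) or voom (0.0657). Of 8 vessel wall genes known as EGR1 targets 0 rose and 1 fell, with a median of 0.09. That gene was Pdgfb, which encodes a growth factor chain made by endothelium, at 8.09, 10.5, 12.4, 9.75 and 8.94 FPKM in WT and 4.86, 5.23, 4.21 and 3.85 FPKM in Apoe_KO (log2 difference -0.97, SE 0.12, adjusted p = 0.00213). Beside it the 6 endothelial markers summed to 187 to 318 FPKM in WT and 170 to 289 FPKM in Apoe_KO. Their median log2 difference was -0.41, against -0.069 over all tested genes, and 1 of the 6 fell. The part of endothelial cells was not tested.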

How the data were processed

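RNA of mouse aorta, polyadenylated or depleted of ribosomal RNA (the labels differ on which), was sequenced, with 5 libraries of WT and 4 of Apoe_KO. The authors deposited 1 table of values per gene and library that names no unit, and FPKM, scaled by the authors to exon length and depth, was deduced from the values. For each library the depth was fitted, as the value that brought low values closest to whole reads. After multiplication by exon length (GENCODE release M21) and this depth, 97.6% to 97.9% of low values, up to 50 reads, lay within 0.1 of a whole read. The 20% given by chance holds for a depth that was not fitted, so the fit itself favours a high share. Per the submitters' processing notes GRCm38 was the build and limma a tool. No source used here names the aligner, counter, annotation or strand setting. Symbols came from GENCODE M21 for 33240 of 33293 identifiers.

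The test of genotype was limma 3.58.1 (R 4.3.3) on log2(FPKM + 1), over genes reaching 1 FPKM in 4 or more libraries (trend and robust options, genotype only, Benjamini-Hochberg adjustment over all genes tested, threshold 0.05). Ratios between members were tested by exact permutation over libraries, two-sided, and correlations by exact permutation of the pairings. The limma fit was tried on simulated reads with 1 setting of spread for all genes, which was not set to the spread of the members. Named were all members, up to 4 genes that passed from each of 7 pathway lists by smallest p, and the 3 to 5 genes of highest r; Ccn2, Sik1, Gadd45g, Myc, Fosl2 and Arc were added after their values were seen. The members and lists were chosen with earlier results of these data known. Alternatives were a replicate block, leaving out libraries, a pseudocount of 0.1, no filter or 10 FPKM, median centring, quantile normalization, library weights and voom on recovered reads.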

Additional observations from a re-analysis of the deposited data

Results flagged for a closer look

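Of the 20 groups of member values (10 genes in each genotype), 2 held a library far from the rest of its group. The rule was Dixon's ratio of gap to range, by which chance gives about 1 in 20. The ratio was taken on FPKM and not on log2(FPKM + 1). A flag close to the critical value can depend on that scale. Nr4a2 was at 8.77 FPKM in WT 3, and the gap to the next library was 0.72 of the WT range, just above the critical value of 0.71. WT 3 also had the highest summed brown adipocyte markers (952 FPKM) and skeletal and heart muscle markers (79.6 FPKM) of the WT libraries, whose part was not tested. Egr3 was at 2.47 FPKM in Apoe_KO 4, with a gap of 0.89 of the range against a critical value of 0.829. The same library held B and plasma cell markers of 395 FPKM, whose part was not tested.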

How the results depend on the processing

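Nr4a3 and Ier3 passed as higher under all 18 alternatives, with log2 differences of 1.56 to 2.04 and 0.75 to 0.97 and adjusted p of at most 0.0226 and 0.025. The number of members that passed as higher was 2 in each except without WT 5, where Egr2 made it 3, and 0 passed as lower. Nr4a2, Egr2, Egr3 and Ier5 did not pass a filter of 10 FPKM. Single differences turned below 0 for Egr1 with library weights (-0.070) and for Ier2 with library weights (-0.088) and without WT 2 and Apoe_KO 4 together (-0.020). With each library left out in turn the differences ran from -0.024 to 0.49 for Egr1 and from -0.020 to 0.36 for Dusp1, both below 0 without WT 1 alone, and from -0.063 to 0.35 for Ier2, below 0 without WT 1 and without Apoe_KO 2. The cause was not tested. For the ratios of Nr4a3 to Nr4a1 and to Nr4a2, leaving out libraries was an alternative chosen after seeing the data. The log2 differences were 1.35 to 1.61 and 1.501 to 1.69 with any single library left out. Without WT 2 and Apoe_KO 4 together they were 1.41 and 1.51. As the ranges were apart, the exact permutation p could only be the smallest possible, 0.0571 in the last case, and is no further test.

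Over all genes, the numbers higher and lower were 459 and 524 as reported, 205 to 576 and 178 to 683 when each library was left out in turn (lowest without Apoe_KO 3, highest without Apoe_KO 2), 203 and 174 without WT 2 and Apoe_KO 4, 247 and 198 with no filter, and 702 and 1055 with library weights. Numbers lower were 220.0 with a filter of 10 FPKM, 269 with median centring and 240.0 with quantile normalization, and 725 were higher with voom. Over the pathway lists 24 were higher and 6 lower as reported, 17 to 23 and 2 to 5 with single libraries left out, and 14 and 2 without WT 2 and Apoe_KO 4; the number lower was 3 with no filter, with median centring, with quantile normalization and with voom, 1 with a filter of 10 FPKM and 10 with library weights. The cause was not tested.

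With the replicate number as a block 121 genes were higher and 62 lower, 12 and 2 in the pathway lists, and Nr4a3 (1.80) and Ier3 (0.90) still passed. No Apoe_KO library had the number of WT 5, so the block also took WT 5 out of the comparison. The members' log2 differences with the block equalled those without WT 5. Same-numbered libraries shared only a number: their deviations correlated at 0.26, -0.27, -0.13 and -0.22 over genes. At the fitted depth each member was covered by at least 87 reads per library. Depth as a limit on the calls was not tested.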

Other observations

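The level of Fos relative to Egr1, chosen after the values were seen and given without a test, was 0.906, 1.42, 1.27, 1.23 and 1.23 in WT 1 to WT 5 and 0.248, 0.355, 0.372 and 0.367 in Apoe_KO 1 to Apoe_KO 4. The genotypes did not overlap in this ratio, whereas the Egr1 range of WT enclosed that of Apoe_KO. Junb, another AP-1 gene, was at 14.9, 29.8, 44.1, 38.1 and 65.8 FPKM in WT and at 23.3, 53.2, 41.4 and 67.9 FPKM in Apoe_KO, with a log2 difference of 0.31 (limma adjusted p = 0.687).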
